A study of Rattus norvegicus with 4 samples.

Results

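Dbp, Tef, LOC690286, Nfil3, Wee1 and Usp2 were followed across 4 rat liver libraries. They are the 6 genes of the deposited table, out of 31457 rows, that carry these symbols, and LOC690286, described there as similar to hepatic leukemia factor, is the gene that the RefSeq table names Hlf. They were selected on their log2 values in these same 4 libraries, so those values are given as a description and support no test. All 6 were among the 9401 genes with enough reads to be used, called kept genes here, of 12874 with a value other than 0.

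Liver RNA came from Lewis rats (allotype RT1L), with 1 library per group and 4 libraries in all. The miR-27b group (PH-ASCs-miR27b), the siRNC group (PH-ASCs-siRNC) and the saline group (PH-Saline) had undergone partial hepatectomy, removal of part of the liver, and had been given the named cells or saline intravenously. The naive group had neither. How the cells were made, whether a library is 1 animal or a pool, the age and sex of the animals, the time since surgery and the hour of sampling are not known from the labels. With 1 library per group, a difference between treatments and a difference between animals or sampling times cannot be told apart, and no test between groups was possible.

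Dbp, Tef and Hlf encode the PAR bZIP transcription factors, proline- and acidic-rich basic leucine zipper proteins that bind D-box elements and activate transcription. Nfil3, also called E4BP4, belongs to a related bZIP group and represses through the same elements. In rodent liver these factors cycle over the day as outputs of the circadian clock and act on genes of bile acid, drug and lipid metabolism. Wee1, a kinase that restrains Cdk1 before mitosis, and Usp2, a protease that removes ubiquitin from proteins, are other clock-controlled genes of liver.

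Windows of 250 bases before the transcription start are shown for Dbp, Tef and Usp2, because these 3 genes had the same order of libraries (RefSeq, GRCr8, plus strand). Capitals mark the E-box CACGTG, the element through which the clock activators act.
Dbp (chr1:105312006-105312255): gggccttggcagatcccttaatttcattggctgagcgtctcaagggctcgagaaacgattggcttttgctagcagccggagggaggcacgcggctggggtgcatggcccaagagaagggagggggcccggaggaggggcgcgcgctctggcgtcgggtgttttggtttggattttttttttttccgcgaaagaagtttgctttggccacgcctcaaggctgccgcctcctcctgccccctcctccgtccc
Tef (chr7:115206577-115206826): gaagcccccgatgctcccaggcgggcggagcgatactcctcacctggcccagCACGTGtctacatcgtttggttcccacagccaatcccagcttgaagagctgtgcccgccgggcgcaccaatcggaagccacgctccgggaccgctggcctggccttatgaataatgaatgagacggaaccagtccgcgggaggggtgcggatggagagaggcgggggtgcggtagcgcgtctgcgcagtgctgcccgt
Usp2 (chr8:53310620-53310869): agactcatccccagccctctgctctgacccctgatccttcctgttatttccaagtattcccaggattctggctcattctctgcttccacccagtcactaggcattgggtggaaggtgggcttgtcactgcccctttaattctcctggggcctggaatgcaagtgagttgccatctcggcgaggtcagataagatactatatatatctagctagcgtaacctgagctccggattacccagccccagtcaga

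The promoter table held windows for 4 of the 6 genes, namely Dbp, Tef, Nfil3 and Usp2, and not for Hlf and Wee1. Windows of 300 bases, with 250 before and 50 after the start, were searched on both strands for the E-box CACGTG, the D-box as TTATGTAA or TTACGTAA, the cyclic AMP response element TGACGTCA, and the ROR element as TNGGTCA or, in the longer strict RORE form, every match of which is also a match of TNGGTCA. The 1 match among the 4 genes was the E-box of Tef, which begins 198 bases before the start. Sequence outside these windows, such as more distant upstream sequence, introns or other starts, was not searched. Of 33469 windows in the table, 6.42% held CACGTG, 0.893% TTATGTAA, 0.12% TTACGTAA, 1.83% TGACGTCA, 11.1% TNGGTCA and 0.245% the strict RORE.

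The label of the miR-27b group names a microRNA without its arm, and both mature rat sequences are shown for that reason (RefSeq, GRCr8, chromosome 17, minus strand). Capitals mark the seed, bases 2 to 8. The libraries are of poly(A) RNA and do not measure them.
rno-miR-27b-3p: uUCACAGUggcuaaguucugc
rno-miR-27b-5p: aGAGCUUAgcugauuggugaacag

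The deposited values are on a log2 scale with 1 baseline per gene, so that they give differences between libraries within a gene and no level that can be compared between genes. A log2 fold is the difference of 2 deposited values, and a gene is called higher or lower at 2-fold or more. Intervals are exact conditional binomial (Clopper-Pearson) 95% intervals of the read ratio. They cover counting error only and say nothing of the spread between animals. Where reads could not be recovered, the rounding of the stored values gave a probable class of at least 16 or 256 normalized reads. The interval was then taken at the lowest read numbers that this class allows, the widest within it. Fewer reads can give the same rounding, so lower reads and wider intervals are not excluded. This holds for Dbp, Tef, Hlf and Usp2. For Dbp the class of 16 covers the miR-27b, siRNC and saline libraries. The naive library lies below that class, with a lower limit of 1.37 normalized reads.

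Among the 6 genes, Dbp, Tef, Hlf, Wee1 and Usp2 were highest in the siRNC library, and Nfil3, the repressor of the group, was lowest there and highest in the miR-27b library. The lowest library was naive for Dbp, Tef and Usp2, saline for Hlf and miR-27b for Wee1. Of the kept genes, 24.8% were highest in miR-27b and 21.3% in siRNC, and 26.2% were lowest in the miR-27b, 22.3% in the siRNC, 21.8% in the saline and 29.7% in the naive library. The order siRNC, saline, miR-27b, naive, from high to low, was shared by Dbp, Tef and Usp2 and found in 3.61% of the kept genes. These counts describe the genes as they were chosen.

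**Figure D1:**
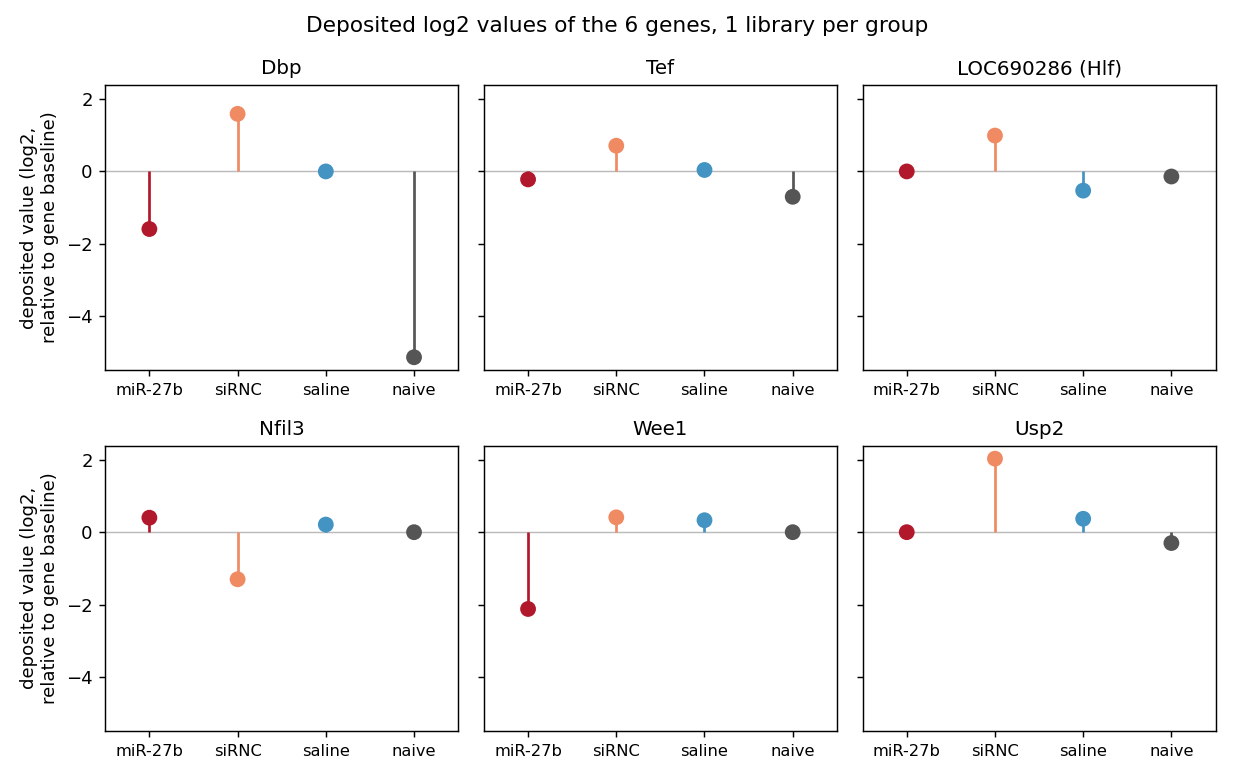
Deposited log2 value (vertical axis, relative to each gene's baseline) of the 6 genes in the miR-27b, siRNC, saline and naive libraries (horizontal axis), where each point is 1 library and lines run to 0. Dbp is at 1.59 in the siRNC and at -5.13 in the naive library, Nfil3 has its low point of -1.30 in the siRNC library, and Wee1 has its low point of -2.12 in the miR-27b library.

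Dbp (gene ID 24309), the activator first described at the D-box of the albumin promoter, had log2 values of -1.59 in the miR-27b, 1.59 in the siRNC, 0.0 in the saline and -5.13 in the naive library. All 3 hepatectomised livers lay above the naive liver, with siRNC at the top and miR-27b as far below saline as siRNC was above it. The span of 6.72 between the siRNC and the naive library, 106-fold, was exceeded by none of the kept genes, whose median span was 0.54.

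Dbp was put at 16 to 85 normalized reads in miR-27b, 145 to 771 in siRNC and 48.2 to 256 in saline. In the naive library it was put at 1.37 to 7.3, so that few reads were counted there. The log2 fold was 3.54 for miR-27b (interval 1.24 to 9.33), 6.72 for siRNC (4.65 to 12.46) and 5.13 for saline (3.01 to 10.89), each against naive. Even at the highest read numbers the stored values allow, the interval of the siRNC against naive fold ran from 5.70 to 8.07. With a pseudocount of 5 normalized reads, added at the lowest read numbers, the 3 folds were 1.72 for miR-27b, 4.56 for siRNC and 3.06 for saline. At higher read numbers the same pseudocount would change them less. The size of a Dbp fold against the naive library was therefore loosely bounded, while its direction was the same over the whole interval.

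Between hepatectomised livers, Dbp had more reads and narrower intervals. Its log2 fold was -3.18 in miR-27b against siRNC (interval -4.08 to -2.44), -1.59 in miR-27b against saline (-2.56 to -0.76) and 1.59 in siRNC against saline (1.12 to 2.09). No interval between neighbours in the order of the 4 libraries included 0.

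Tef (gene ID 29362), thyrotrophic embryonic factor, had log2 values of -0.22 in the miR-27b, 0.71 in the siRNC, 0.04 in the saline and -0.70 in the naive library. The order of the libraries was that of Dbp, over a span of 1.42 in place of 6.72. Tef was put between 22.4 and 214 normalized reads in miR-27b and between 42.7 and 408 in siRNC. The limits were 26.8 and 256 in saline and 16 and 153 in naive.

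Only the end points of the Tef order were apart by 2-fold, with a log2 fold of 1.42 in siRNC against naive (interval 0.53 to 2.31). The log2 fold of miR-27b against siRNC was -0.93 (-1.79 to -0.18), just under 2-fold. Neighbouring libraries were not separated by counting error at the lowest read numbers, with intervals of -0.05 to 1.41 for siRNC against saline, -1.18 to 0.57 for miR-27b against saline and -0.58 to 1.46 for miR-27b against naive. At the highest read numbers allowed, the interval of siRNC against saline was 0.45 to 0.90 and that of miR-27b against naive 0.18 to 0.81, both without 0, while that of miR-27b against saline still included 0, at -0.53 to 0.01.

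Hlf (LOC690286, gene ID 690286), hepatic leukemia factor, had log2 values of 0.0 in the miR-27b, 0.99 in the siRNC, -0.53 in the saline and -0.14 in the naive library. It stood high in siRNC alone, and unlike Dbp and Tef it was lower in the saline than in the naive library. The inferred class put Hlf at 369 or more normalized reads in miR-27b, 732 in siRNC, 256 in saline and 335 in naive. If this class holds, its folds carry the narrowest intervals of the 6 genes at the lowest read numbers.

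Hlf was 2.86-fold higher in siRNC than in saline, a log2 fold of 1.52 (interval 1.31 to 1.72). Against naive, siRNC was at 1.13 (0.94 to 1.32) and saline at -0.39 (-0.63 to -0.15). The miR-27b and naive libraries, neighbours in the order, were not separated by counting error, with a log2 fold of 0.14 (-0.08 to 0.36). The log2 fold of miR-27b against siRNC was -0.99 (-1.17 to -0.80), just under the 2-fold threshold.

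Nfil3 (gene ID 114519), the D-box repressor, had log2 values of 0.40 in the miR-27b, -1.30 in the siRNC, 0.21 in the saline and 0.0 in the naive library. The siRNC library stood apart below the other 3, which lay close together. Its recovered read numbers were 178 in the miR-27b, 57.5 in the siRNC, 170 in the saline and 138 in the naive library.

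Nfil3 was lower in siRNC than in saline by a log2 fold of -1.52 (interval -1.96 to -1.07) and than in naive by -1.30 (-1.76 to -0.84). In miR-27b against siRNC the log2 fold was 1.70 (1.26 to 2.14), 3.26-fold. The intervals of miR-27b against saline, at 0.19 (-0.12 to 0.50), and of saline against naive, at 0.21 (-0.12 to 0.55), both included 0. The interval of miR-27b against naive, the outer pair of these 3 libraries, did not, at 0.40 (0.07 to 0.73). The read numbers rest on a match of the stored decimals with a posterior probability of 0.811. The folds of Nfil3 do not depend on this match, but its intervals do, and fewer reads would widen them.

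The folds of the activator Dbp and the repressor Nfil3 are set side by side. In siRNC against saline Dbp was at 1.59 and Nfil3 at -1.52, and in miR-27b against siRNC Dbp was at -3.18 and Nfil3 at 1.70. In siRNC against naive Dbp was at 6.72 and Nfil3 at -1.30, and in miR-27b against saline Dbp was at -1.59 and Nfil3 at 0.19. In saline against naive and in miR-27b against naive both were above 0, with Nfil3 at 0.21 and 0.40. The comparisons share libraries and are not independent of each other.

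**Figure D2:**
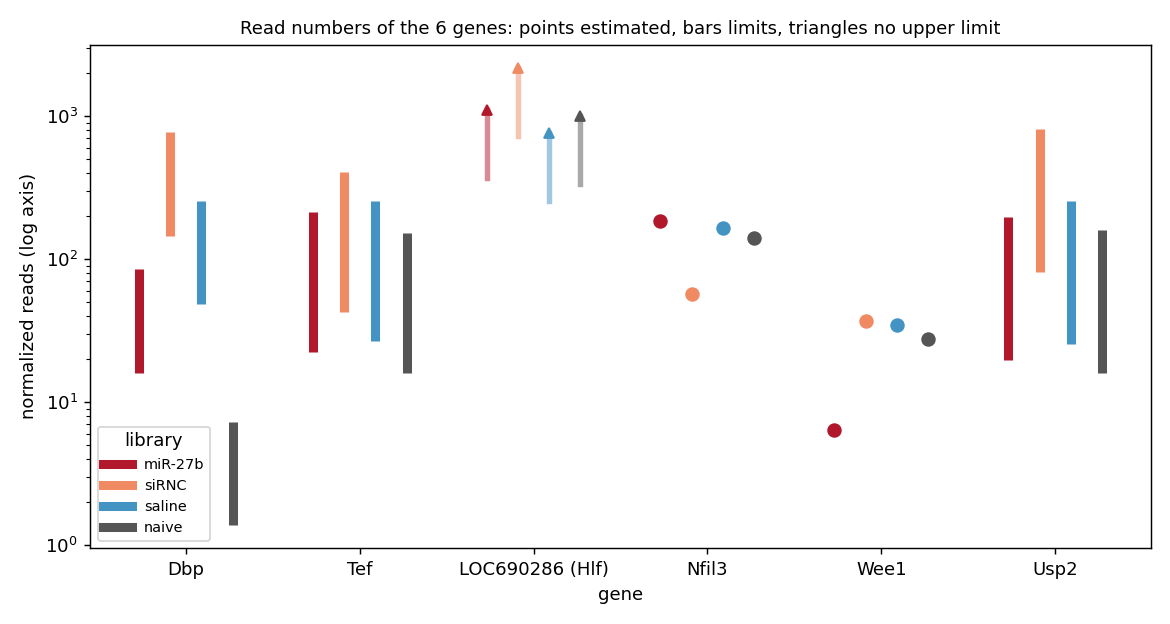
Normalized reads (vertical axis, log scale) of the 6 genes (horizontal axis) in the miR-27b, siRNC, saline and naive libraries, left to right within a gene. Points are recovered reads, bars run between limits inferred from the stored values, and triangles mark the open upper end of Hlf. The naive bar of Dbp, at 1.37 to 7.3, and the miR-27b point of Wee1, at 6.38, are the lowest.

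Wee1 (gene ID 308937), the kinase that holds Cdk1 inactive, had log2 values of -2.12 in the miR-27b, 0.41 in the siRNC, 0.33 in the saline and 0.0 in the naive library. It was low in the miR-27b library alone, and the other 3 libraries lay within 0.41 of each other. The recovered reads were 6.1 in the miR-27b, 37 in the siRNC, 36 in the saline and 27 in the naive library, with a posterior probability of 0.744. The intervals of Wee1 depend on these read numbers, and its folds do not.

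The log2 fold of Wee1 in miR-27b was -2.53 against siRNC (interval -4.09 to -1.29), -2.44 against saline (-4.0 to -1.20) and -2.12 against naive (-3.71 to -0.83). The interval did not include 0 in any of these 3 comparisons, which share the low miR-27b library with its 6.1 reads. The siRNC, saline and naive libraries were not separated, with intervals of -0.61 to 0.79 for siRNC against saline, -0.34 to 1.19 for siRNC against naive and -0.43 to 1.10 for saline against naive. Wee1 was the 1 member whose siRNC value did not stand apart from saline while its miR-27b value did.

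Usp2 (gene ID 115771), the ubiquitin protease, had log2 values of 0.0 in the miR-27b, 2.03 in the siRNC, 0.37 in the saline and -0.30 in the naive library. It was high in siRNC alone, and the other 3 libraries lay within 0.67 of each other. Usp2 was put between 19.7 and 198 normalized reads in miR-27b and between 80.7 and 809 in siRNC. The limits were 25.5 and 256 in saline and 16 and 160 in naive.

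Usp2 was higher in siRNC than in saline by a log2 fold of 1.66 (interval 0.99 to 2.32), and than in naive by 2.33 (1.51 to 3.17), 5.04-fold. In miR-27b against siRNC it was at -2.03 (-2.82 to -1.29). Against naive, miR-27b was at 0.30, with an interval that included 0 both at the lowest read numbers (-0.76 to 1.34) and at the highest (-0.01 to 0.61). Against saline, miR-27b was at -0.37, with -1.32 to 0.51 at the lowest and -0.65 to -0.10 at the highest read numbers.

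Counted by comparison, 1 of the 6 genes was at least 2-fold higher in saline than in naive, Dbp, and none was lower, where 5.37% of the kept genes were called higher and 3.52% lower. In siRNC against naive 4 were higher (Dbp, Tef, Hlf and Usp2) and 1 lower (Nfil3), where 5.6% of the kept genes were called higher and 3.29% lower. In miR-27b against naive 1 was higher (Dbp) and 1 lower (Wee1), where 7.72% were called higher and 3.74% lower. The median log2 fold of the 6 genes in these comparisons was 0.50, 1.27 and 0.35, in the same order, against medians of -0.01, -0.01 and -0.03 over the kept genes.

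Between hepatectomised livers, siRNC against saline had 3 of the 6 genes higher (Dbp, Hlf and Usp2) and 1 lower (Nfil3), where 1.87% of the kept genes were called higher and 1.57% lower, with a median log2 fold of 1.09. In miR-27b against saline 0 were higher and 2 lower (Dbp and Wee1), where 2.16% were called higher and 1.65% lower, with a median of -0.31. In miR-27b against siRNC 1 was higher (Nfil3) and 3 lower (Dbp, Wee1 and Usp2), where 2.69% were called higher and 2.07% lower, with a median of -1.51. Because the genes were chosen with these folds known, their counts are not read against those shares.

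**Figure D3:**
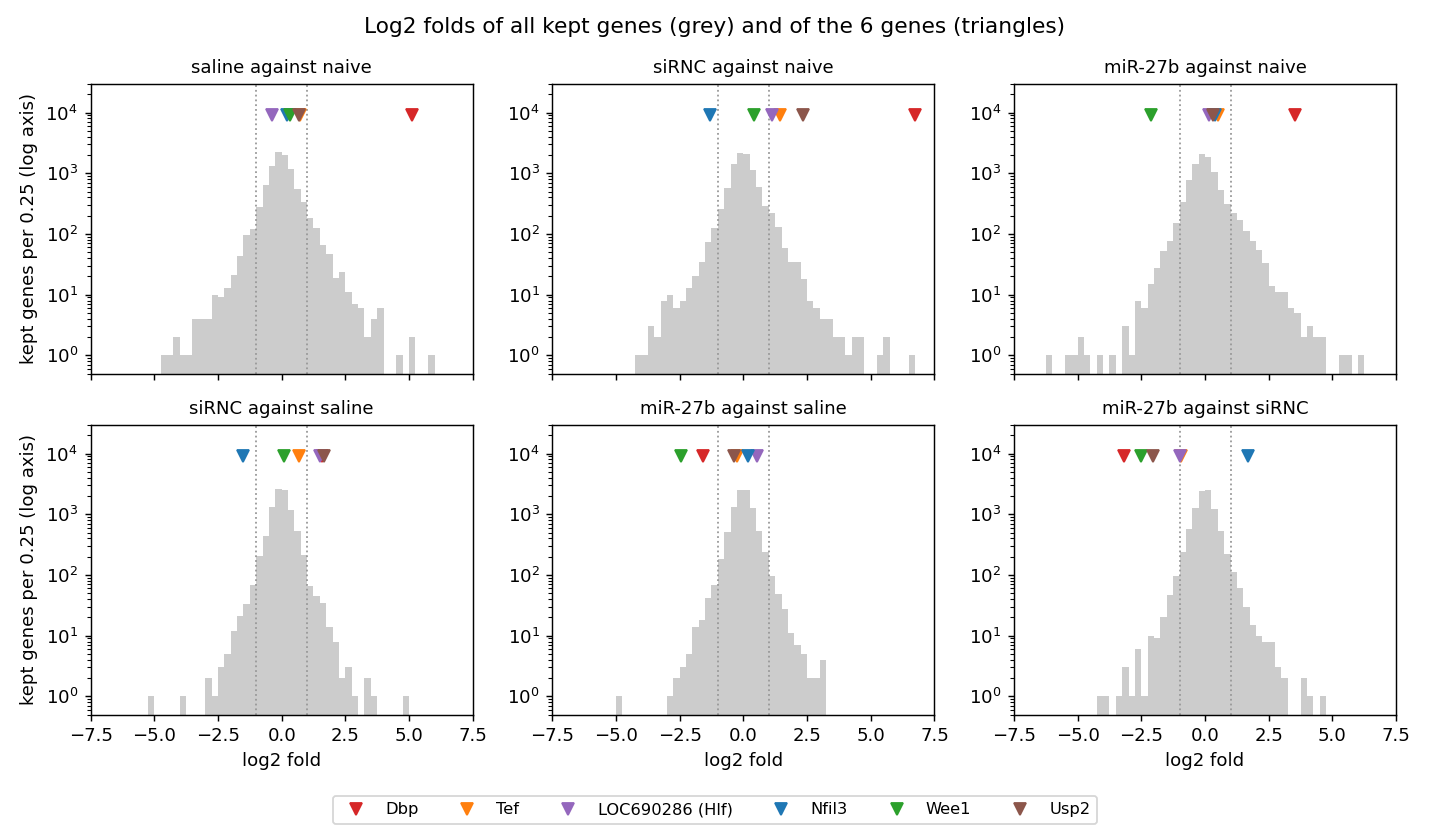
Log2 folds (horizontal axis) of the 9401 kept genes as grey bars (genes per bin of 0.25, log axis) and of the 6 genes as coloured triangles, whose height has no meaning, in 6 comparisons; dotted lines mark 2-fold. Dbp lies far to the right in the 3 panels against naive and at -3.18 in miR-27b against siRNC, where Nfil3, at 1.70, is the 1 member to the right of 0.

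The genes of the clock that drives these outputs were compared from fixed lists. These and the later lists were chosen with earlier results of these data known, so their counts are a description. Per1, Per2, Per3, Cry1, Cry2, Bhlhe40, Bhlhe41 and Ciart formed the repressor list, of which 5 were kept; Per2 had too few reads, Bhlhe41 was listed at 0 in all libraries and Ciart was not matched. All 5 kept repressors were above 0 in siRNC against saline, 4 of them by 2-fold or more, with a median log2 fold of 1.26. All 5 kept repressors were below 0 in miR-27b against siRNC, with a median of -0.81 and 1 of them, Per3, past 2-fold. In this comparison 2.69% of all kept genes were called higher and 2.07% lower. The shares for the other comparisons are given above, and the median over all kept genes lay between -0.03 and 0.0 in each. They are the background of the list and marker counts below.

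Per3, a period protein, had log2 values of -1.86 in the miR-27b, 1.57 in the siRNC, 0.03 in the saline and -3.96 in the naive library, the order of Dbp. Cry1, a cryptochrome that represses the clock activators, had -0.10 in the miR-27b, 0.83 in the siRNC, -0.26 in the saline and 1.20 in the naive library. Bhlhe40, a repressor that binds E-boxes, had -0.65, 0.0, -1.26 and 0.99 in the same libraries. Cry1 and Bhlhe40 were thus highest in the naive library, where Per3 and Dbp were lowest.

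Per1, a period protein that acts with the cryptochromes, had log2 values of 0.37 in the miR-27b, 1.05 in the siRNC, -0.31 in the saline and 0.0 in the naive library. Cry2 had -0.26 in the miR-27b, 0.55 in the siRNC, -0.17 in the saline and 0.02 in the naive library. Both were highest in siRNC, as 5 of the 6 genes were.

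The second list had 7 genes matched in the table, the activators Arntl, Clock and Npas2 and the nuclear receptors Nr1d1, Nr1d2, Rora and Rorb, of which 6 were kept and Rorb was listed at 0. Arntl, the partner of Clock at E-boxes, had log2 values of 0.15 in the miR-27b, -2.13 in the siRNC, 0.0 in the saline and 1.07 in the naive library. Npas2, which can replace Clock, had 0.37 in the miR-27b, -1.67 in the siRNC, -0.10 in the saline and 1.17 in the naive library. Clock had 0.0 in the miR-27b, -0.91 in the siRNC, -0.43 in the saline and 0.94 in the naive library.

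These 3 activators had their low point in the siRNC library, as Nfil3 did, but their high point in the naive library, where Nfil3 was at 0.0. Nr1d1, REV-ERB alpha, which in mouse liver represses Arntl, had -0.12 in the miR-27b, 0.28 in the siRNC, 0.28 in the saline and -1.61 in the naive library. Nr1d2, its relative, had -0.18 in the miR-27b, 0.48 in the siRNC, 0.0 in the saline and -1.13 in the naive library. Rora, an activator at the same elements, had 0.02 in the miR-27b, -0.42 in the siRNC, -0.24 in the saline and 1.29 in the naive library.

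Over the second list, 2 of 6 were 2-fold higher and 4 were 2-fold lower in saline than in naive, with a median of -1.17. The counts in siRNC against naive were again 2 higher and 4 lower, with a median of -1.78, and in miR-27b against naive 1 higher and 1 lower, with a median of -0.85. Between hepatectomised livers 2 were lower in siRNC than in saline, Arntl and Npas2, and the same 2 were higher in miR-27b than in siRNC, with medians of -0.33 and 0.68. None was past 2-fold in miR-27b against saline, where the median was 0.21.

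For the repressors against naive, 1 was higher and 2 were lower in saline, with a median of -0.31. In siRNC 2 were higher and none lower, with a median of 0.54, and in miR-27b 1 was higher and 2 were lower, with a median of -0.27. In miR-27b against saline none was higher and 1 lower, Per3 at -1.89, with a median of 0.17. With Per2, left out of these counts for its few reads, the median was -0.79 in miR-27b against naive, 0.79 in siRNC against naive and 0.04 in miR-27b against saline.

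**Figure D4:**
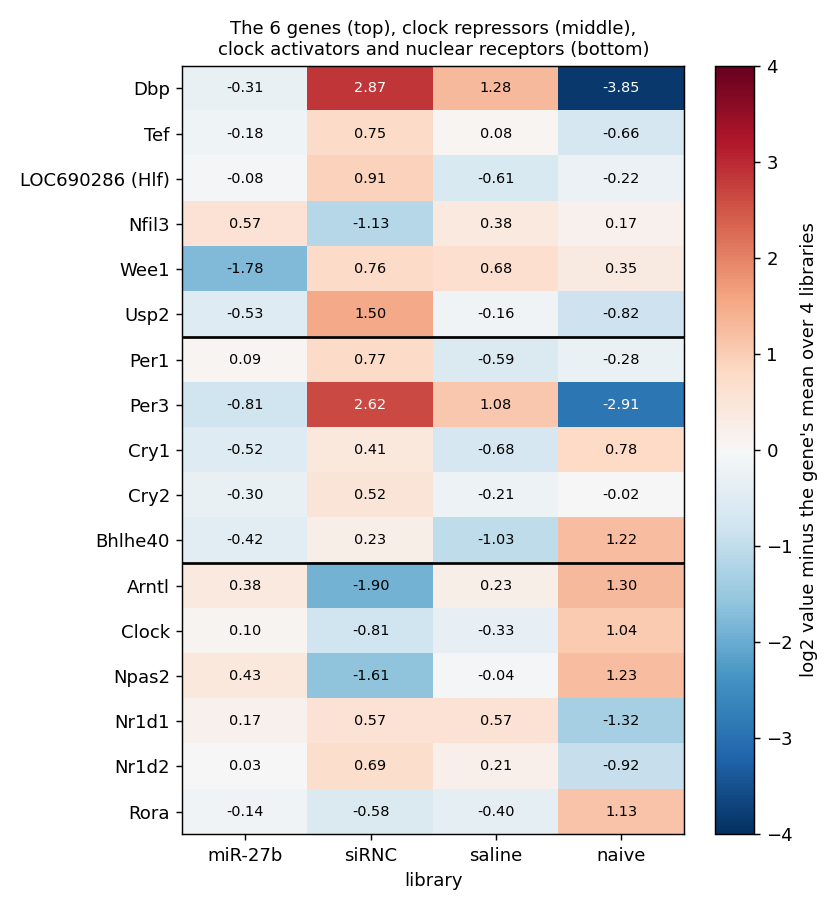
Log2 value minus the gene's mean over the 4 libraries (colour and number) for the 6 genes, the kept clock repressors and the kept clock activators and nuclear receptors (rows), in the miR-27b, siRNC, saline and naive libraries (columns). In the siRNC column Dbp is at 2.87, Per3 at 2.62 and Usp2 at 1.5, and Arntl is at -1.90, Npas2 at -1.61 and Nfil3 at -1.13.

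Genes reported in rodent liver as targets of the PAR bZIP factors were taken from a list of 26, of which 23 were kept. In siRNC against saline, where Dbp and Hlf were past 2-fold, 1 target was higher and 2 were lower, with a median log2 fold of -0.13. In miR-27b against siRNC 2 were higher and none lower, with a median of 0.18, and in miR-27b against saline 1 was higher and 2 lower, with a median of -0.13. Against naive, 6 were higher and 0 lower in saline, 4 higher and 1 lower in siRNC, and 4 higher and 3 lower in miR-27b, with medians of 0.04, -0.08 and 0.12 in this order.

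Cyp7a1, which catalyses the first and limiting step from cholesterol to bile acids, had log2 values of 0.12 in the miR-27b, 0.78 in the siRNC, -1.5 in the saline and -1.90 in the naive library. Ces2c, a carboxylesterase, had 0.26 in the miR-27b, -0.66 in the siRNC, 0.78 in the saline and -1.72 in the naive library. Cyp2b2, a cytochrome P450 of drug metabolism, had 0.64 in the miR-27b, -0.44 in the siRNC, 1.80 in the saline and 0.0 in the naive library. These 3 had the widest spans of the list and did not share an order, and reads of Ces2c and Cyp2b2 may be shared with near-identical paralogs.

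Of the CEBP list, which apart from Cebpz holds bZIP relatives without the PAR domain, 5 of 6 were kept. None was past 2-fold in any of the 6 comparisons, with medians from -0.23 to 0.22. Cebpd had the widest span of them, with log2 values of 0.71 in the miR-27b, 0.05 in the siRNC, 0.0 in the saline and -0.26 in the naive library.

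Around Wee1, 4 of 11 genes of the passage from G2 to M were kept. Cdk1, the kinase that Wee1 inhibits, had log2 values of 1.39 in the miR-27b, -2.53 in the siRNC, 0.0 in the saline and 1.71 in the naive library. Ccnb1, its cyclin, had 1.12 in the miR-27b, -1.54 in the siRNC, 0.0 in the saline and 2.20 in the naive library. Chek1, a checkpoint kinase, had 0.31 in the miR-27b, 0.20 in the siRNC, -0.26 in the saline and -0.61 in the naive library.

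Cdk1 and Ccnb1 were thus lowest in siRNC and highest in naive, whereas Wee1 was lowest in miR-27b. Cdk1 and Ccnb1 were not in the class of 16 or more normalized reads, and no counting interval was taken for them. Both were past 2-fold in the same direction in siRNC against saline (2 of 4 lower, median -1.19), miR-27b against saline (2 of 4 higher, median 0.84) and miR-27b against siRNC (2 of 4 higher, median 1.48). Against naive, 2 of 4 were lower in saline and in siRNC and 1 of 4 in miR-27b, with medians of -0.68, -1.85 and 0.01. Over all 10 list genes with a value other than 0, kept or not, the medians were -0.23 in siRNC against saline, 0.95 in miR-27b against saline, 0.26 in miR-27b against siRNC and -0.16 in siRNC against naive. With 4 kept genes, the medians above describe little beyond Cdk1 and Ccnb1.

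Of 46 other ubiquitin-specific proteases, 35 were kept, and Usp2 is not among them. Their median log2 fold lay between -0.30 and 0.09 over the 6 comparisons, and at most 3 of 35 were past 2-fold in any of them. Usp49 had the widest span, with log2 values of -1.28 in the miR-27b, 0.01 in the siRNC, 0.0 in the saline and 0.66 in the naive library. Usp29 had -0.05 in the miR-27b, 1.15 in the siRNC, 0.33 in the saline and 0.0 in the naive library, and Usp11 had 0.48, -0.50, -0.61 and 0.0 in the same libraries.

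All 8 genes of a list of reported substrates and partners of Usp2 were kept, with 3 higher and 1 lower in siRNC against saline (median 0.02) and none past 2-fold in miR-27b against siRNC (median -0.34). In miR-27b against saline 1 was higher and 1 lower (median 0.12). Against naive, 0 were higher and 1 lower in saline, 2 higher and 1 lower in siRNC, and 0 higher and 2 lower in miR-27b, with medians of -0.65, -0.37 and -0.48.

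Ccnd1, the cyclin of G1 whose protein Usp2 stabilises, had log2 values of -1.71 in the miR-27b, -1.22 in the siRNC, 0.06 in the saline and 0.79 in the naive library. Fasn, fatty acid synthase, had 0.64 in the miR-27b, 0.85 in the siRNC, -1.28 in the saline and -0.29 in the naive library. Per1 and Cry1, described above, are also on this list.

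The kept genes nearest to each member over the 4 libraries were found by Euclidean distance between log2 values after each gene's mean was subtracted. With 4 values a gene, such distances are a description. The nearest to Dbp were Per3 at 1.11, Cish at 1.67 and Frem1 at 2.05, and no kept gene lay within 0.5. Among the nearest to Usp2 were C7 at 0.503 and Ten1 at 0.562.

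For Wee1 the nearest were Clec16a at 0.44, Cbx7 at 0.569 and Cep112 at 0.642. Among the nearest to Nfil3 were Fes at 0.166 and Grip2 at 0.288.

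Tef and Hlf, with smaller spans, had many close genes, 95 and 39 within 0.5. The nearest were Mylip at 0.0979, Ralgps1 at 0.14 and Ddx59 at 0.175 for Tef, and Ccnf at 0.104, Mvd at 0.145 and Camta1 at 0.149 for Hlf. Among the members themselves, Tef and Hlf were 0.838 apart, Tef and Usp2 0.879, and Dbp and Nfil3 5.81, the closest and the most distant pairs.

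Markers of liver cell types were read beside these folds. In bulk tissue, fewer cells of a type and less RNA per cell cannot be told apart. All 8 hepatocyte markers, including Alb, Ttr and Apob, were kept in the class of 256 or more normalized reads. None was past 2-fold in any of the 6 comparisons, with medians from -0.15 to 0.25.

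The naive library differed from the hepatectomised ones in other markers. Of 11 kept macrophage markers, 10 were higher in miR-27b, 7 in siRNC and 10 in saline, each against naive, with medians of 1.48, 1.02 and 1.28. All 5 kept erythroid markers were higher in each, with medians of 2.02, 1.95 and 2.36, and 3 of 8 endothelial markers in miR-27b and 2 of 8 in siRNC and in saline, with medians of 0.72, 0.46 and 0.60. Their part in the folds of Dbp, Tef and Usp2 against naive was not tested.

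Between hepatectomised livers no macrophage, erythroid or endothelial marker was past 2-fold. Of 6 kept stellate and matrix markers, 4 were higher in siRNC than in saline, with a median of 1.18 and a range of 0.05 to 2.75, and 3 were lower in miR-27b than in siRNC, with a median of -0.58. In miR-27b against saline 1 of the 6 was higher, with a median of 0.46. Against naive 3 were higher in miR-27b, 5 in siRNC and 2 in saline, with medians of 1.39, 1.97 and 0.68.

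Col1a1, a collagen chain, had log2 values of 0.0 in the miR-27b, 2.50 in the siRNC, -0.25 in the saline and -2.0 in the naive library. It was highest in siRNC, as were Col1a2, Col3a1 and Dcn. Acta2 and Pdgfrb were highest in miR-27b, at 1.1 and 0.21, against 0.23 and -0.41 in siRNC. The part of these markers in the high siRNC values of Dbp, Hlf and Usp2 was not tested.

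The cholangiocyte list had 2 of 5 genes kept, Krt19 and Epcam, with Krt7 and Sox9 listed at 0. Krt19 had log2 values of 0.35 in the miR-27b, -1.04 in the siRNC, 0.72 in the saline and -1.26 in the naive library. The lymphocyte list had 1 of 11 kept, Cd4, with 0.23 in the miR-27b, 0.0 in the siRNC, -0.05 in the saline and -1.02 in the naive library, and Cd79a was listed at 0. With 1 kept gene, this list gives no measure of lymphocytes. None of 5 neutrophil markers was kept, and Mpo, Elane and Camp were listed at 0.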

How the data were processed

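Liver poly(A) RNA was prepared with TruSeq reagents and read on a MiSeq, in 4 libraries, per the labels' protocols. The submitters' processing notes name DESeq and the build rn5, while the read aligner and counter are not named in the labels. The deposited values are log2: they fit reads scaled by size factors and set to at least 1 before the logarithm, with a baseline then subtracted from each gene, since a middle library is at 0 in 77.3% of 12874 genes. Size factors, read from genes above 0 in 1 library alone, were 0.956 for miR-27b, 1.01 for siRNC, 1.04 for saline and 0.977 for naive. Total reads per library were not recoverable from differences within genes.

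Read numbers were searched among whole reads and fractions of a read, mainly steps of 1 in 101 of a read, and taken at a posterior above 0.5; 64.4% of recovered values were whole within 1e-06. Other genes were placed in classes of at least 16 or 256 normalized reads by the binary rounding of the stored values. These classes are probable and not certain, since fewer reads can give the same rounding. A library far below the others, as naive was for Dbp, can lie below the class of its gene. The same rounding gave upper limits, which 47 of 1152 checked genes (4.08%) exceeded. Kept were 1872 genes with a mean of at least 10 recovered normalized reads, 5033 in the class of 16 and 2496 in the class of 256. Counting gives a log2 ratio an SD of 0.51 where both libraries hold 16 reads and 0.128 where both hold 256.

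The log2 fold is the difference of 2 deposited values, and a call is 2-fold. Intervals and limits cover counting error only. The intervals treat reads as independent molecules, which reads without molecular identifiers need not be. Genes outside the 6 were named as all kept genes of the clock lists, up to 3 of the widest span in other lists, and the 3 nearest by distance, a few of which are not reported here; markers named were picked from their lists for illustration. The genes and lists were chosen with earlier results of these data known. Alternatives were a median subtraction, a 1.5-fold threshold, a pseudocount of 5, and no or a stricter filter. Symbols are those of the deposited table, and RefSeq sequences (GRCr8) were matched by symbol or gene ID. Python 3.11.15, NumPy 2.4.6, pandas 2.3.3, SciPy 1.17.1 and matplotlib 3.10.9 were used, and the scripts were tested on simulated data.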

Additional observations from a re-analysis of the deposited data

How the results depend on the processing

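No paired analysis was possible because each group has 1 library, and no library could be left out for the same reason. Subtracting the median fold of the kept genes moved no fold by more than 0.03 and changed none of the 6 counts of members. With a pseudocount of 5 normalized reads, added at the lowest read numbers for Dbp, Tef, Hlf and Usp2, all 6 member counts were the same. Of 36 member folds, 35 moved within their counting interval, and the other was Dbp in siRNC against naive, at 4.56. The Dbp fold was also smaller by over 1.5 times in miR-27b against naive, at 1.72, and in saline against naive, at 3.06. At 1.5-fold, 3 in place of 1 of the 6 genes were called in saline against naive, and the other 5 counts stayed within 1.5 times. The count of kept genes past the threshold moved by more than 1.5 times with the threshold, with either filter and, in 4 of 6 comparisons, with the pseudocount. For miR-27b against naive it was 2462 at 1.5-fold, 2424 without the filter and 264 with the stricter one. For siRNC against naive these were 2070, 1942 and 198, and 543 with the pseudocount. For saline against naive they were 2154, 1942 and 198. In miR-27b against siRNC they were 1497, 1492 and 98, and 279 with the pseudocount. In miR-27b against saline they were 1352, 1311 and 73, and 206 with the pseudocount. In siRNC against saline they were 1296, 1132 and 71, and 202 with the pseudocount. A lower threshold admits smaller folds and a stricter filter leaves 3177 of 9401 genes. Of 84 list medians, 17 moved without the filter, among them the G2 to M genes in siRNC against naive, at -0.16, siRNC against saline, at -0.23, and miR-27b against siRNC, at 0.26. Depth limits Dbp in the naive and Wee1 in the miR-27b library most, and no replicate bounds the spread between animals.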
